A study of Mus musculus with 6 samples.

Results

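Liver ILC1 (group 1 innate lymphoid cells) from healthy C57BL/6 mice were profiled by RNA sequencing, and their transcriptome is described here over all measured genes. The members are the 3 libraries whose disease label reads healthy, of 6 samples in the series, each with values for 24091 gene symbols. These libraries, called healthy 1 to 3, came from mice that had been given no leukaemia cells, while the other 3 came from mice injected with cells of the mouse leukaemia line C1498 and are not compared here. The cells were taken at day 14 of the experiment, 2 ng of total RNA per sample was amplified with a poly(A)-primed SMART-Seq kit, and single reads of 51 cycles were obtained without strand information. No genotype other than the strain, no age of the animals in weeks, no sex, no sorting gate and no statement of single or pooled animals is given in the labels, so the spread between libraries may be partly technical and may cover more than 1 animal per library.

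ILC1 are lymphocytes that settle in tissues such as the liver and belong, with natural killer (NK) cells, to the group 1 innate lymphoid cells. They carry no rearranged antigen receptor, depend on the transcription factor T-bet, are known for a fast release of interferon gamma and chemokines, and in mouse liver are told from conventional NK cells by CD49a (Itga1) in place of CD49b (Itga2) and by little or no Eomes. Cytotoxic lymphocytes store granzymes and perforin in granules and balance signals from activating and inhibitory receptors that read MHC class I and stress ligands on other cells.

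Total counts were 50366362, 51114701 and 48999439 in healthy 1 to 3. Levels between genes are given as TPM, the count divided by the gene length in the deposited table and scaled to a sum of 1000000 in every library. The spread of a gene between libraries is given from CPM, the count per 1000000 reads on library sizes scaled by the TMM method. Every ± is an SD over the 3 libraries (n = 3), and 3 values in a row are healthy 1, 2 and 3. Where a gene has 0 reads, a level of up to 3 counts is allowed, which is 0.0587 to 0.0612 CPM per library. This limit covers counting error only, because amplified reads without molecular tags are not separate molecules. By the correlation of log2 CPM across 8222 genes, healthy 1 stood apart, with 0.985 and 0.983 to healthy 2 and 3, against 0.990 between those. By the median absolute log2 difference it did not. This was 0.119 between healthy 1 and 2, 0.150 between healthy 1 and 3 and 0.124 between healthy 2 and 3. Healthy 1 held more transcript of myeloid and heat shock genes, which are given below with each library's value. In bulk RNA, fewer cells of a type and less RNA per cell cannot be told apart.

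A mean of 1 TPM or more was reached by 10825 of 24091 genes, or 44.9% of all genes, and 8618 genes had no read in any library. In every library separately, 10338 genes reached 1 TPM. The median over all genes was 0.311 TPM, and over the genes at 1 TPM or more it was 23.6 TPM. Just above the threshold lay Gm19510, Zcchc3 and Fut7, with means of 1.00 TPM each, and just below it lay Pmel, Rasl11a and Cdkn3, with means of 0.999, 0.998 and 0.998 TPM. Genes at the threshold varied strongly, as Gm19510 shows with 1.99, 0.141 and 0.876 TPM. Of the 15473 genes with a read, 5490, 4590 and 5393 were highest in healthy 1, 2 and 3, and 5643, 4947 and 4883 were lowest there, against which counts of list members by library are read. Protein-coding genes, by their RefSeq class, held 96.7 ± 0.103% of TPM.

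The 6 genes used as ILC1 markers were all present, which alone does not separate ILC1 from conventional NK cells. None of the 6 varied 2-fold or more between libraries. For 6 genes this does not set them apart, as only 0.839% of all genes with a mean of at least 10 CPM did. Ncr1, which encodes the activating receptor NKp46, had 2088, 2079 and 2265 TPM. Cxcr6, a chemokine receptor that keeps lymphocytes in the liver, had 1017, 1165 and 996 TPM. Tbx21, which encodes T-bet, had 556, 579.9 and 672 TPM. These 3 genes therefore lay far above the median of detected genes in every library, and their libraries differed by at most 1.21-fold in CPM. Itga1, the collagen-binding integrin CD49a at chr13:114958081-115101964, was the lowest of the markers with 86.6, 86 and 97 TPM. Gzmb and Xcl1, described with the effector genes, were the highest at 12061 ± 763 TPM and 7491 ± 1418 TPM.

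The pairs Tbx21 with Eomes and Itga1 with Itga2, which separate ILC1 from conventional NK cells, pointed to the ILC1 side in each library. Tbx21 exceeded Eomes, the T-box factor of mature NK cells, by a TPM ratio of 160.1 ± 46.7, with 213, 145 and 123 in the libraries. Eomes itself was at 2.61, 4.01 and 5.46 TPM, from 245, 384 and 490 reads, so it was low but not absent. Itga1 exceeded Itga2 by a ratio of 17 ± 1.49, with Itga2 at 5.24, 4.61 and 6.14 TPM. The order of both pairs was the same in all 3 libraries.

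Of the 16 genes listed for conventional NK cell identity, 13 reached 1 TPM in mean, against 44.9% of all genes. The summed share of the list was 0.0793 ± 0.00878% of TPM. S1pr5, the egress receptor of circulating NK cells, had 8, 5.92 and 4.63 TPM. Zeb2, a factor of late NK maturation, had 1.4, 0.52 and 0.316 TPM. Both were highest in healthy 1, as were 5490 of 15473 genes with a read. Myeloid transcript was also higher in that library, and the part of myeloid cells in these levels was not tested. Klf2 at 193 ± 58.6 TPM, Cd27 at 171 ± 21.4 TPM and Irf8 at 111 ± 5.09 TPM were higher. These 3 genes are not confined to NK cells: Klf2 keeps lymphocytes quiescent, Cd27 is a costimulatory receptor and Irf8 is also a factor of myeloid cells. Klra9, Klra3 and Itgam, also on the list, lay above the median of detected genes in mean. Their levels are given with the Ly49 receptors and the integrins. Cma1 and Klra4 had no read.

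Further genes known from ILC1 were detected at 12 of 12, against 44.9% of all genes, with a median of 446 TPM. Cd7, a surface glycoprotein of early lymphoid and innate cells, had 9127, 9262 and 8922 TPM. Rgs1, which dampens chemokine receptor signalling and marks resident lymphocytes, had 4035, 6468 and 6639 TPM, lowest in healthy 1. Klrb1c, the NK1.1 antigen, had 1293, 1101 and 1245 TPM. Cd69, which opposes tissue egress, had 393, 654 and 711 TPM and was likewise lowest in healthy 1. S1pr1, the egress receptor that CD69 removes from the surface, lay at 1.18, 0.647 and 0.492 TPM. The death ligand gene Tnfsf10 (TRAIL) had 142, 135 and 142 TPM and Cd200r1 had 148, 145 and 162 TPM. Itgae (CD103), a marker of epithelial resident lymphocytes, was near the detection threshold at 1.07 ± 0.402 TPM.

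**Figure D1:**
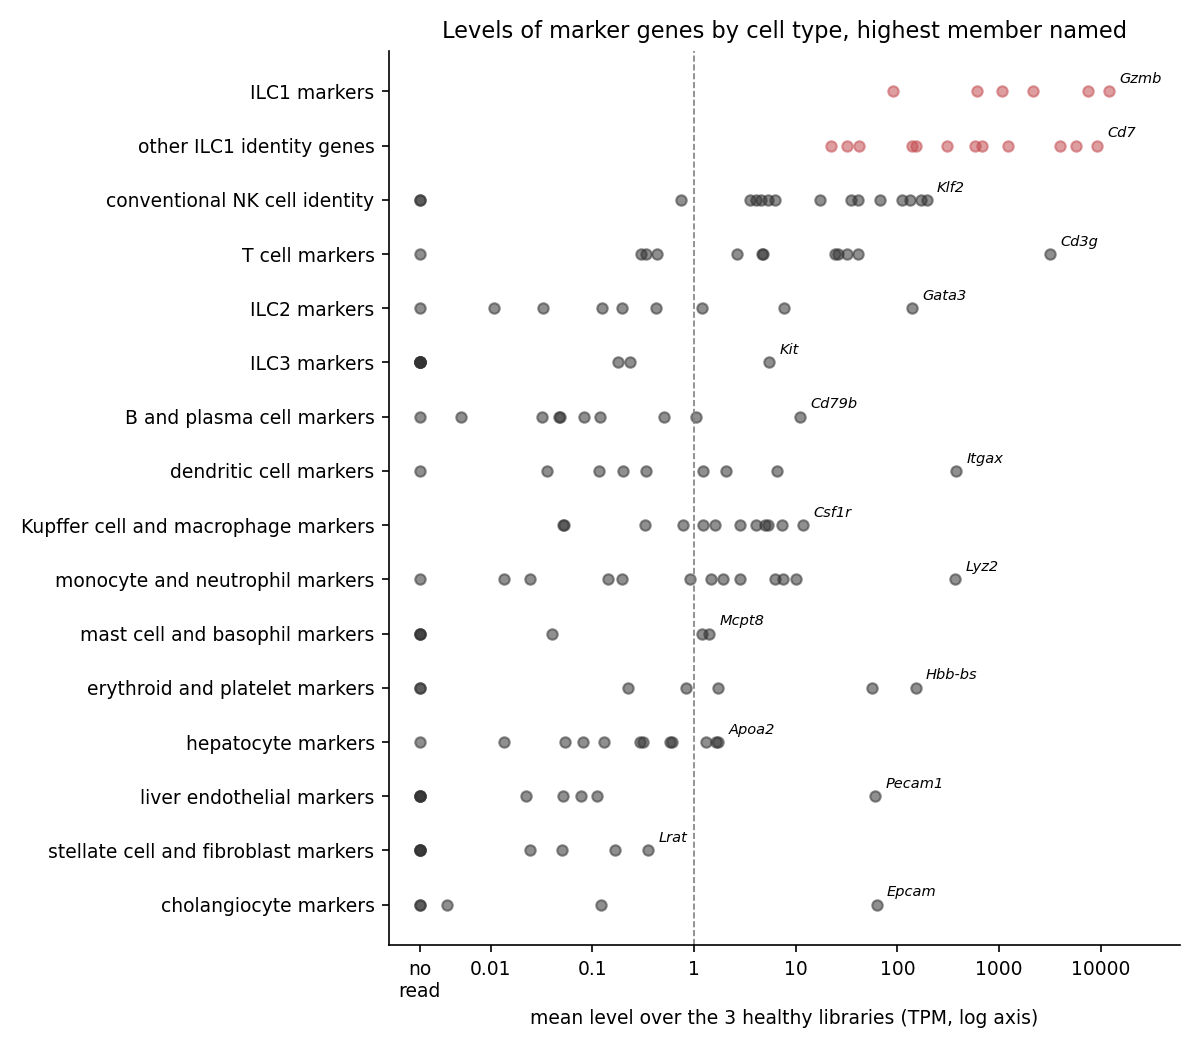
Mean TPM over the 3 healthy libraries (log axis) of every measured member of the marker lists, 1 point per gene, with genes without a read at the left edge, the dashed line at 1 TPM and the highest member of each list named. All ILC1 markers lie between 89.9 and 12061 TPM. The lists of other cell types have most members at or below 10 TPM, apart from single genes such as Itgax, Lyz2 and Gata3. Parts of the NK list and of the T cell list, the latter led by Cd3g, are also higher.

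The most abundant transcript was Tmsb4x, which encodes the actin monomer-binding peptide thymosin beta 4 (X chromosome, chrX:167207094-167209218), with 39378, 41714 and 40048 TPM. B2m, the invariant chain of MHC class I, followed with 20193, 21691 and 21502 TPM, and Ccl5, a chemokine for T cells and monocytes stored by cytotoxic lymphocytes, with 19147, 19536 and 18152 TPM. The ranges of these 3 genes over the libraries did not overlap, so their order was the same in every library. The next 4 genes, Gzmb, Gzma, Ccl4 and Junb, overlapped in range. Only the pair of Gzmb and Junb kept its order in every library, with Gzmb the higher. Junb, an AP-1 transcription factor (chr8:84976909-84978748), had 10477, 11376 and 10826 TPM.

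Ranks 8 to 20 mixed cytoskeletal, MHC and receptor signalling genes. Pfn1, the actin regulator profilin, had 9395, 8709 and 8336 TPM. H2-D1 and H2-K1, the classical class I heavy chains, had 8032, 8138 and 8241 TPM and 5090.1, 5301 and 5597 TPM. Nkg7, a granule membrane protein needed for degranulation, had 7423, 7153 and 6669 TPM, and Cd52, a short glycoprotein of leukocytes, had 7159, 7103 and 7092 TPM. The receptor adaptors Fcer1g and Tyrobp (DAP12) had 6982, 6621 and 6487 TPM and 6797, 6355 and 6550.4 TPM. Cd52, H2-D1 and Sh3bgrl3 were the steadiest of the 20, with coefficients of variation over TPM of 0.505%, 1.28% and 1.62%, while Ccl4, Rgs1 and Xcl1 were the least steady at 25.8%, 25.5% and 18.9%. AW112010, an interferon-inducible transcript, had 6707, 6791 and 7147 TPM.

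**Figure D2:**
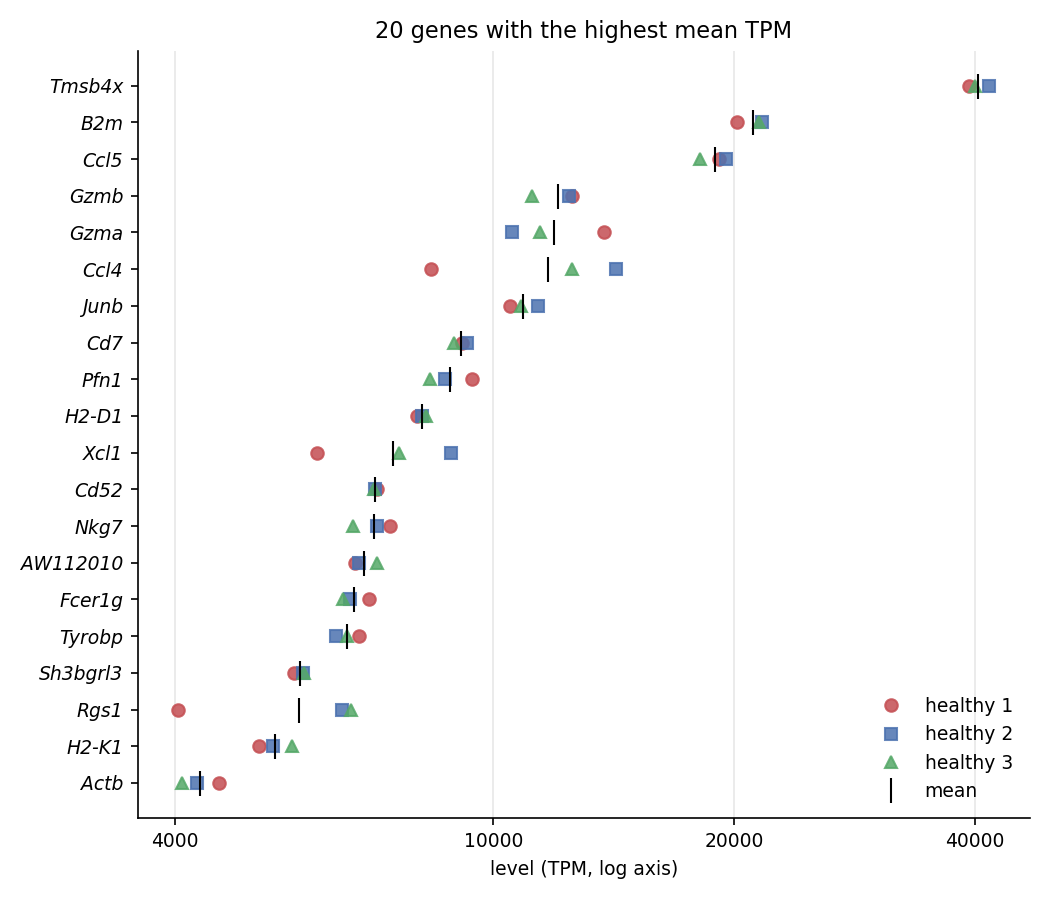
Level in TPM (log axis) of the 20 genes with the highest mean, 1 point per healthy library and a black tick for the mean. Tmsb4x stands alone above all others, most genes have their 3 points close together, and Ccl4, Xcl1 and Rgs1 have healthy 1 far below the other libraries.

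The transcriptome was concentrated in few genes. The 10 highest genes held 15.3 ± 0.397% of TPM, the 100 highest 36.2 ± 0.692% and the 1000 highest 66.5 ± 0.432%. Counted without the length scaling, the 100 highest genes held 22.9%, as many of the top transcripts are short. By CPM the order of the 10 highest was Tmsb4x, Junb, B2m, Gzmb, H2-D1, H2-K1, Gzma, Il2rb, Ccl5 and Rgs1. Of the genes in none of the lists, the 10 highest by TPM were AW112010, Sh3bgrl3, Gimap4, Crip1, Shisa5, Vps37b, Itm2b, Arhgdib, Fth1 and Laptm5. Gimap4, a GTPase of lymphocytes, had 3168, 3203 and 3389 TPM, and Fth1, the ferritin heavy chain, had 2398, 2293 and 2223 TPM.

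Gene classes took very unequal shares. Actin cytoskeleton genes held 6.89 ± 0.161% of TPM over 24 genes, mostly through Tmsb4x, and cytotoxic granule genes held 4.39 ± 0.213% over 23. Chemokine ligands held 4.09 ± 0.528%, MHC class I and peptide loading genes 4.01 ± 0.106% and immediate early genes 3.32 ± 0.345%. Cytosolic ribosomal protein genes, 84 in number, held only 1.03 ± 0.0812%. Shares of raw counts, which favour long transcripts, were smaller for the classes of short genes: 2.45% for granule genes, 1.05% for chemokines, 3.49% for actin genes and 2.67% for class I genes. The order of these classes turned on that scale: immediate early genes, at 3.29% of counts, passed chemokine, granule and class I genes, and granule genes fell below class I genes.

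**Figure D3:**
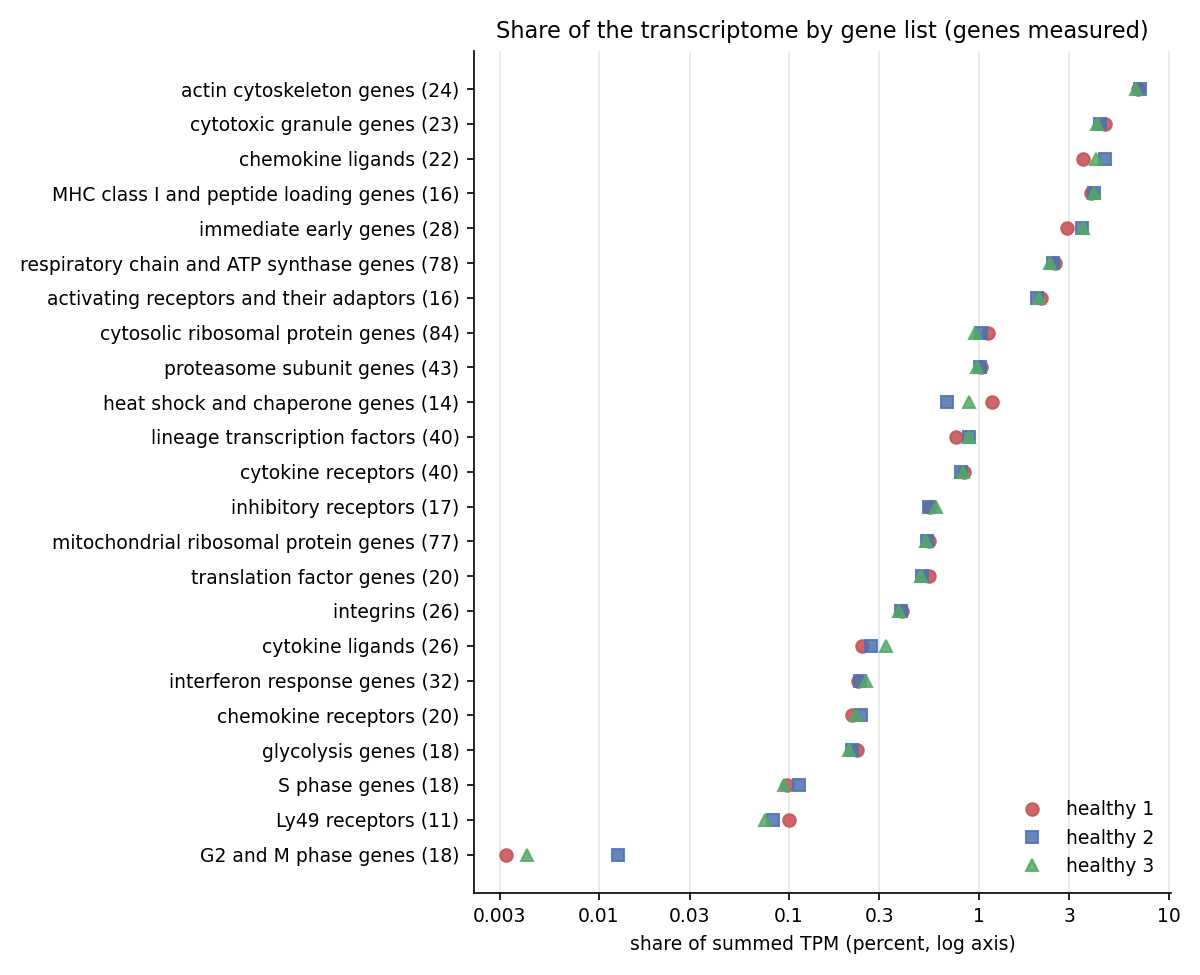
Share of summed TPM in percent (log axis) held by the gene lists plotted, with the number of measured genes in brackets and 1 point per healthy library. Actin, granule, chemokine and class I genes lead, and among the lists plotted the 3 points lie farthest apart for G2 and M phase genes and then for heat shock genes. Lists of other cell types, histone genes and MHC class II genes are not plotted, and several of them differ more between libraries.

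Granule genes were led by 2 granzymes. Gzmb, a serine protease that cuts caspases and Bid in target cells (chr14:56258858-56262260), had 12558, 12443 and 11183 TPM. Gzma, a tryptase (chr13:113093827-113100981), had 13757, 10562 and 11443 TPM, highest in healthy 1. Gzmc had 1141, 1405 and 1298 TPM. The TPM ratio of Gzmb to Gzma was 1.02 ± 0.138, so neither was consistently the higher gene: Gzmb led in healthy 2 only. The other granzymes were near the threshold or below it, with Gzmm at 3.04 ± 0.188 TPM, Gzmk at 1.86 ± 1.08 TPM, and Gzmd and Gzmg without a read.

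Perforin, the pore former that delivers granzymes, was much lower than the proteases it delivers. Prf1 had 456, 435 and 476 TPM, and Gzmb exceeded it by a ratio of 26.6 ± 2.7. Other granule genes were abundant: the proteases Ctsd and Ctsw had 3055, 3548 and 3327 TPM and 3129, 3036 and 3263 TPM, and Srgn, the proteoglycan on which granzymes are packed, had 2715, 2615 and 2535 TPM. Genes of granule release were at lower and even levels, with 149.8, 137 and 156 TPM for Unc13d (Munc13-4), 177, 157 and 172 TPM for Stxbp2 (Munc18-2), 56.5, 50.7 and 65.3 TPM for Stx11 and 42.3, 52.4 and 51 TPM for Rab27a. Serpinb9, which inhibits granzyme B inside the cell that makes it, had 282, 321 and 269.5 TPM. Of the granule genes with a mean of at least 10 CPM, 0 of 17 differed 2-fold or more between libraries. This does not set them apart from the 69 of 8222 or 0.839% of all genes at that level.

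Chemokine output rested on 4 genes of the 22. Ccl4 (MIP-1 beta, chr11:83662584-83664683) had 8360.4, 14223 and 12545 TPM and Ccl3 (MIP-1 alpha) had 1782, 3296 and 2886 TPM and attracts leukocytes as Ccl4 does. Xcl1, the ligand of XCR1 on cross-presenting dendritic cells (chr1:164931648-164935510), had 6017, 8845 and 7612 TPM. These 3 were lowest in healthy 1 and highest in healthy 2, and the ratio of Ccl4 to Ccl3 stayed at 4.45 ± 0.208. Ccl5 did not follow them, with at most 1.11-fold between libraries. The next chemokine, Cxcl10, an interferon-induced ligand of CXCR3, had 18.2, 33.1 and 48 TPM, lowest in healthy 1. Ccl6 at 43.2, 4.2 and 4.94 TPM, Cxcl2 at 11.9, 4.22 and 2.16 TPM, Ccl2 at 11.7, 1.63 and 0.927 TPM and Ccl9 at 7.65, 1.06 and 0.604 TPM, chemokines that myeloid cells make, were highest in healthy 1, where myeloid markers were also highest. The part of myeloid cells in their levels was not tested.

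Among cytokine genes, Ifng, the interferon gamma gene, had 1191, 1470.3 and 1844 TPM. Ltb, the membrane-bound partner of lymphotoxin, had 742, 741 and 809 TPM, and Flt3l, a growth factor of dendritic cells, had 175, 147 and 172 TPM. The lowest and highest libraries differed by 1.52-fold in CPM for Ifng and by 1.07-fold for Ltb. Tnf had 34.2, 72.3 and 97.7 TPM, Csf2 (GM-CSF) had 14.8, 22.9 and 34 TPM and Il2 had 17.1, 21.5 and 36.7 TPM. Each of these, like Ifng, was lowest in healthy 1 and highest in healthy 3, the order also seen for Jun and Fos below. The cytokines of other helper-like cells were at or near 0: Il5, Il17a and Il22 had no read, and Il4 and Il13 had 0.106, 0.208 and 0.277 TPM and 0.185, 0.109 and 0.0774 TPM. Tgfb1 had 87.4, 90.4 and 89.4 TPM.

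Death and costimulatory ligands of the TNF superfamily were led by Fasl, which triggers apoptosis through FAS, with 402, 448 and 391 TPM. It exceeded Tnfsf10 by a ratio of 2.97 ± 0.312. Tnfsf8 (CD30 ligand) had 35.8, 34.4 and 52.2 TPM and Tnfsf14 (LIGHT) had 24.9, 28.1 and 36.4 TPM. Cd40lg, the helper ligand of T cells, was at 0.393, 0.175 and 0.784 TPM. Of the 14 ligands, 6 reached 1 TPM in mean, close to the 44.9% of all genes, and the summed share was 0.0651 ± 0.00178%.

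Activating receptors and their adaptors were detected at 15 of 16 genes, against 44.9% of all genes, with a median of 379 TPM. Among the adaptors that carry their signals, Tyrobp was above Hcst (DAP10) by a ratio of 5.72 ± 0.206, and Fcer1g was above Cd247 (CD3 zeta) by 109 ± 31.1. For Cd247, at 48.1, 73.1 and 70.3 TPM, 60.3% of the annotated exon bases lie in exons of Pou2f1, where reads without strand cannot be assigned to either gene, and the part of this in its level was not tested. Klrk1, which encodes NKG2D, a receptor of stress ligands, had 779, 787 and 885 TPM. Cd160 had 667, 737 and 624 TPM, Cd226 (DNAM-1) had 219.8, 267 and 278 TPM and Fcgr3 (CD16) had 235, 197 and 228 TPM. These receptors varied little, and Cd226 with 1.24-fold in CPM was the least even of the 3. Slamf6, a homotypic receptor of lymphocytes, had 12, 0 and 10 reads.

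Inhibitory receptors were detected at 16 of 17 genes, against 44.9% of all genes. Klrd1 (CD94), the shared chain of the NKG2 receptors for Qa-1, had 2865, 2655 and 2914 TPM. Klrc1 (NKG2A), its inhibitory partner, had 847, 897 and 959.8 TPM, while the activating partner Klrc2 had 52.3, 44.8 and 51.6 TPM. The Klrc1 value needs care, as 39.6% of its 51-base windows recur in transcripts of other loci. Tigit and Cd96, which bind the same nectin-like ligands as CD226, had 159, 159 and 159 TPM and 200.3, 187 and 192 TPM. Vsir (VISTA) had 169.8, 166 and 166 TPM and Lilrb4a had 218, 281 and 368 TPM, lowest in healthy 1. The checkpoint genes of activated T cells were lower, with Lag3 at 25.3, 20.8 and 21.9 TPM, Pdcd1 (PD-1) at 20.3, 12.4 and 18.6 TPM, Ctla4 at 8.33, 15.3 and 14.7 TPM and Havcr2 (TIM-3) at 2.64, 0.961 and 0.222 TPM.

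Of the Ly49 receptors, the lectin-like MHC class I receptors of mouse NK cells, 1 gene held most of the transcript. Klra5 had 846, 582 and 545 TPM, highest in healthy 1, and 0.638% of its windows recur elsewhere. Klra9 had 99.6, 175 and 121 TPM and Klra3 had 31.5, 39.2 and 53.5 TPM, with 31.2% and 20.5% of windows recurring, so reads between these close copies are uncertain. Klra8 (Ly49H) had 2.53, 4 and 4.19 TPM and Klra1 (Ly49A) had 2.61, 3.2 and 4.85 TPM. Klra4 had no read in any library.

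Cytokine receptors were led by Il2rb, the beta chain shared by the receptors of IL-2 and IL-15 (chr15:78480549-78495066), with 4144, 3837 and 3914 TPM. Il2rg, the common gamma chain, had 1448, 1447 and 1448 TPM. Il15ra, which presents IL-15, had 21.9, 22.1 and 24.9 TPM. Il2rb exceeded Il2ra, the high-affinity alpha chain of activated cells, by 752 ± 159.8, and Il7r by 127 ± 25.1. Il7r itself had 27.4, 30.1 and 38.7 TPM, so the receptor of the classical helper-like ILC growth factor was present at a level close to the median of detected genes.

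Receptors of the cytokines that induce interferon gamma were unequal. The IL-12 receptor chains Il12rb1 and Il12rb2 had 166, 175 and 166 TPM and 145, 151 and 157 TPM, a ratio of 1.12 ± 0.051. The IL-18 receptor chains Il18rap and Il18r1 were lower, at 40.5, 42 and 46.5 TPM and 10.4, 8.03 and 12.8 TPM. Il21r had 279, 312 and 328 TPM and Il27ra had 232, 234 and 230.4 TPM. Tgfbr2 and Tgfbr1, receptors of the cytokine known to shape resident ILC1, had 146, 137 and 147 TPM and 33.3, 38.7 and 40.4 TPM. Ifngr1 had 709, 754 and 709.7 TPM, whereas Ifngr2, the other chain of the same receptor, had 242, 77 and 0 reads and a mean of 2.28 TPM. For Ifngr2, 0.122% of windows recur elsewhere and no annotated exon base is shared with another gene, so repeated or overlapping sequence was not seen beside the low count.

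Chemokine receptors reached 1 TPM in 9 of 20 genes, about the same share as the 44.9% of all genes. After Cxcr6, Cxcr3, the receptor of interferon-induced chemokines, had 730.1, 814 and 832 TPM. Ccr2, a receptor of monocyte chemokines, had 98.4, 105 and 96.8 TPM. The bone marrow homing receptor Cxcr4 lay at 5.31, 1.63 and 2.28 TPM, and Ccr7, the lymph node homing receptor, at 1.29, 0.0221 and 0.0236 TPM. Cx3cr1 had 7.07, 1.24 and 1.31 TPM; like Cxcr4 and Ccr7 it was highest in healthy 1. Ccr6, Cxcr1 and Ackr3 had no read.

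Receptors for lipids and small molecules included Gpr171 at 273 ± 6.31 TPM, Ptger4, a prostaglandin E2 receptor, at 178, 208 and 214 TPM, the proton sensor Gpr65 at 176 ± 10.4 TPM and the adenosine receptor Adora2a at 116 ± 10.9 TPM. Of this list, 18 of 23 genes were detected, against 44.9% of all genes. In it 1 gene, the leukotriene receptor Ltb4r1, passed 2-fold with 25.2, 13.6 and 11.5 TPM.

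The TNF receptor superfamily was led by Tnfrsf18 (GITR) with 575, 561 and 594 TPM and Tnfrsf9 (4-1BB) with 358, 318 and 255 TPM. Tnfrsf1b and Tnfrsf1a, the 2 TNF receptors, were near equal at 156 ± 9.21 TPM and 155 ± 13.4 TPM. Fas had 11.2, 13.1 and 14 TPM and Tnfrsf4 (OX40) had 2.2, 3.49 and 3.32 TPM. Thus the receptor for Fasl was at 12.8 TPM in mean, against 414 TPM for the ligand.

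Among integrins, Itgb7, which pairs with alpha 4 or alpha E, had 1168, 1165 and 1161 TPM, Itgb2, the leukocyte beta chain, had 1165, 1087 and 951 TPM and Itgal, its partner in LFA-1, had 649.9, 643 and 674 TPM. The partners of Itgb7 were far lower, with Itga4 at 10.5, 8.05 and 9.05 TPM and Itgae at 0.765, 0.92 and 1.53 TPM. Itgax (CD11c), often used for dendritic cells, had 356, 386 and 402 TPM, while the dendritic cell genes Flt3, Clec9a and Siglech lay at 0.336 TPM, 0.115 TPM and 0 reads. Itgam (CD11b) had 38.6, 33 and 32.7 TPM, and Itgal exceeded it by 19 ± 1.93. The 20 adhesion and pan-leukocyte genes were among the most even lists, with 2.54 ± 0.00489% of TPM and a median ratio of highest to lowest library of 1.07. Ptprc (CD45) had 814, 831 and 859.8 TPM, and Thy1 and Ly6a (Sca-1) had 26.9, 34.3 and 28.2 TPM and 3.03, 6.37 and 8.01 TPM.

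Lineage transcription factors were headed by Id2, the E protein antagonist on which innate lymphoid cells depend (chr12:25093799-25096092), with 2664, 3530.4 and 3940.0 TPM. Bhlhe40 had 1427, 1898 and 1582 TPM and Cebpb had 1037, 952 and 709 TPM. Id2 was lowest and Cebpb highest in healthy 1. Nfil3, needed for ILC precursors, had 368, 372 and 363 TPM, and Ets1 had 420.5, 441 and 463 TPM. Hic1, a repressor known from resident lymphocytes, had 90.3, 72.5 and 67.4 TPM. Gata3, which ILC1 share with ILC2, had 134, 134 and 151 TPM. Runx3 had 119, 139 and 129.7 TPM, Ikzf3 (Aiolos) 121, 124 and 128 TPM, Tcf7 49.4, 54 and 67 TPM and Prdm1 (Blimp-1) 20.4, 22.8 and 26.7 TPM. These factors, from Id2 to Prdm1, each differed by less than 2-fold in CPM between libraries. Spi1 passed 2-fold with 43.9, 4.26 and 3.88 TPM, highest in healthy 1, the library with more myeloid transcript, and was the only lineage factor to do so among the 29 with a mean of 10 CPM or more. Below that mean, Eomes, Zeb2, Cebpa and Myb also passed it. The part of myeloid cells in the Spi1 level was not tested.

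Genes that respond within minutes to stimulation were abundant in these samples, whose labels name no stimulation. All 28 immediate early genes were detected, against 44.9% of all genes. Their median was 572 TPM, against 23.6 TPM for detected genes. After Junb, the phosphatase gene Dusp1 had 2999, 4771 and 4690.3 TPM and the mRNA decay factor Zfp36 had 1101, 1641 and 1827 TPM, both lowest in healthy 1. Jun had 908, 1421 and 2574 TPM and Fos had 610.4, 1019 and 1549.8 TPM. For both, healthy 1 was lowest and healthy 3 highest, with 2.78-fold and 2.49-fold between them in CPM. Nr4a1 (Nur77), a gene of antigen receptor signalling, had 434, 358 and 352 TPM and Egr1 had 225, 319.9 and 267 TPM. Nr4a2 ran the other way, with 132, 80.8 and 59.6 TPM. Of the 26 members at 10 CPM or more, 4 passed 2-fold (Jun, Fos, Nr4a2 and Fosb), against 0.839% of all genes at that level. Of all 28, 18 were lowest in healthy 1, against 5643 of 15473 genes with a read. The sources used here do not give the handling time of the cells, and the part of handling in these levels was not tested.

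Signalling genes downstream of receptors were all detected. Lck, the Src kinase of T and NK cells, had 1309.6, 1276 and 1203 TPM, and Zap70 had 279.9, 268 and 249 TPM. Jak1 and Jak3, which serve Il2rb and Il2rg, had 519.8, 542 and 589 TPM and 142, 146 and 151 TPM. Ptpn6 (SHP-1), recruited by inhibitory receptors, had 535, 511 and 469.7 TPM. The cytokine signal inhibitors Socs1 and Cish had 314, 409.8 and 509 TPM and 199, 188 and 218 TPM. All 28 listed genes reached 1 TPM, against 44.9% of all genes. With at least 10 CPM, 0 of 27 passed 2-fold, which does not set them apart from the 0.839% of all genes. Stat4, the transducer of IL-12, had 262, 259 and 286 TPM, and Irf1 had 323, 339 and 412 TPM.

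Heat shock genes differed widely between the libraries. Hspa1b and Hspa1a, which encode the inducible chaperone HSP70, had 2291, 244 and 1255 TPM and 729.7, 80.6 and 414 TPM, highest in healthy 1 and lowest in healthy 2. The ratio between the pair was 3.07 ± 0.0633, but 62% and 60.1% of their windows recur at other loci, so how reads fell between them is uncertain. Dnajb1 (HSP40) had 991, 364 and 883 TPM, Hsp90aa1 had 285, 135 and 193 TPM and Hsp90ab1 had 2764, 1345 and 1717 TPM. Of the 14 genes, 13 were highest in healthy 1 and 12 were lowest in healthy 2. The exception at the top, Hspa5 (BiP), a chaperone of the endoplasmic reticulum, had 3009, 3394 and 2987 TPM. Of the 12 members at 10 CPM or more, 6 passed 2-fold, against 0.839% of all genes at that level.

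The promoters of the heat shock genes were read for GAANNTTC or TTCNNGAA, short patterns that form only part of the heat shock element. The reverse complements of both are the same letters. Windows were the 250 bases before each start in RefSeq GRCm38.p6. Counted by gene, either form was found in 7 of 11 heat shock genes with a promoter in the table. Counted by promoter, it was found in 4218 of 32851 promoters in all, or 12.8%, so the units differ. The 7 include Hspa1a and Hspa1b, near-identical in sequence, and Hspe1 and Hspd1, whose matches lie on the same stretch. The sequences below, chosen after the values were seen, are the pair of near-identical HSP70 genes and a stretch with 3 overlapping matches of the motif, with the motif in capitals and each read 5′ to 3′ on the gene's strand up to the base before its start.
Hspa1a: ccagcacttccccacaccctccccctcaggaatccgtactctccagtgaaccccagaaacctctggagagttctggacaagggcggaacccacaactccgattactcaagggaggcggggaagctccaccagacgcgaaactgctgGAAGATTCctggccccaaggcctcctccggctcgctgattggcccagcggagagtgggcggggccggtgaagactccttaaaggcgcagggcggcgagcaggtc
Hspa1b: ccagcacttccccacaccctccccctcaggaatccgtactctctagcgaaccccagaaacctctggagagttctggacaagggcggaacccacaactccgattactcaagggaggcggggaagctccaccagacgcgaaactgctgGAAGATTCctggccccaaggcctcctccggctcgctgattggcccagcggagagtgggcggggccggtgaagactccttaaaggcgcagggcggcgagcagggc
Hspe1: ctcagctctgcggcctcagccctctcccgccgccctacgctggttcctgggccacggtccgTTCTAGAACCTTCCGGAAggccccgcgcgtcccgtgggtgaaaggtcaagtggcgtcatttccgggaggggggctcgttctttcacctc
The first spans chr17:34972157-34972406 and the next chr17:34959239-34959488, both on the minus strand, and the last spans chr1:55087998-55088147 on the plus strand. The HSP70 promoters are identical at 247 of 250 bases, or 98.8%, and each holds GAAGATTC 104 bases before the start. The Hspe1 stretch holds 3 overlapping matches starting 89, 84 and 79 bases before the start. Hspe1 and Hspd1, mitochondrial chaperonin genes that lie head to head on this stretch, had 145, 63.9 and 88.4 TPM and 118, 81.1 and 91.5 TPM. Dnajb1, Hsp90aa1 and Hsp90ab1, which also passed 2-fold, had no match listed, and only 11 of the 14 genes had a promoter to search. The absence of a match does not show that a gene lacks the element. A match is a description of these letters and was not measured as a bound site. Any link between the matches and the differences between libraries was not tested. The AP-1 letters TGACTCA, on either strand, occurred in 4.46% of promoters. Counted by gene, a different unit, they occurred in 1 of 13 of the 20 most abundant genes with a promoter in the table. They also occurred in 2 of 11 heat shock genes, Bag3 and Hspa5. The abundant gene was Gzmb, shown with the match in capitals 58 bases before the start, at chr14:56262335-56262434 on the minus strand.
Gzmb: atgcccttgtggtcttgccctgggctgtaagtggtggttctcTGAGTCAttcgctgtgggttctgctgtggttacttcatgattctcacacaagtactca

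Antigen presentation and protein turnover genes were high. Class I genes held 3.88%, 4.06% and 4.07% of TPM. The peptide transporter genes Tap1 and Tap2 had 121, 129.6 and 149.7 TPM and 537, 573 and 585 TPM, and Tapbp (tapasin) had 905, 863 and 807 TPM. H2-T23, which encodes the Qa-1 ligand of CD94 and NKG2A, had 773, 822 and 809 TPM. Immunoproteasome subunits were among the highest of the 43 proteasome genes, with Psmb8 at 1124, 1205 and 1243 TPM, Psmb10 at 570.1, 555 and 566 TPM and Psmb9 at 448, 518 and 529 TPM. Of the proteasome genes at 10 CPM or more, 0 of 41 passed 2-fold, which does not set them apart from the 0.839% of all genes.

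Interferon response genes were moderate. Of 32, 31 reached 1 TPM, against 44.9% of all genes. Their list had a median of 29.7 TPM against 23.6 TPM over all detected genes. Ifi47 had 464, 531 and 501 TPM, Irf7 205, 172 and 228 TPM, Isg15 163, 142 and 159 TPM and Ifit1 33.3, 28 and 41.1 TPM. Of the 32, 21 were highest in healthy 3, against 5393 of 15473 genes with a read. At 10 CPM or more 0 of 27 passed 2-fold, close to the 0.839% of all genes.

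The median level of the respiratory genes was above that of the glycolysis genes, some of which share sequence with other loci as given next. The 78 respiratory chain and ATP synthase genes held 2.46 ± 0.0754% of TPM with a median of 239 TPM, and the 18 glycolysis genes held 0.217 ± 0.0104% with a median of 69.5 TPM. Atp5b had 1322, 1179 and 1096 TPM and Cox6a1 had 1191, 1197 and 1171 TPM. Aldoa and Ldha, the highest glycolytic genes, had 679, 618 and 593 TPM and 497, 488 and 468 TPM. Slc2a1 and Slc2a3, glucose transporters, had 122, 86.9 and 80.3 TPM and 88.6, 83.8 and 103 TPM, and Slc3a2, a chain of amino acid transporters, had 449.8, 523 and 422 TPM. Of the respiratory genes, 66 of 78 were lowest in healthy 3, against 4883 of 15473 genes with a read. At 10 CPM or more, 0 of 71 passed 2-fold, which does not set them apart from the 0.839% of all genes.

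Several housekeeping genes were lower than genes of the same pathway, and they shared sequence with other loci. Gapdh had 12.9, 11.9 and 15.3 TPM, with 82.4% of windows recurring elsewhere, against 12.9% for Aldoa. Eno1 had 3.48, 2.27 and 3.6 TPM with 71.9%, and Pgk1 had 8.35, 7.08 and 6.1 TPM with 67.9%. Actg1 had 41.4, 43.3 and 35.1 TPM with 55.8%, whereas Actb had 4539, 4255 and 4083 TPM with 13.3%. These genes were chosen after their values were seen, and their lists as a whole do not show the pattern: across genes, Spearman's rho between the share of recurring windows and the level was 0.0053 for the 18 glycolysis genes, 0.13 for the 24 actin genes and 0.0023 for the 20 translation factor genes. Eef1a1, a translation factor, ran against it, with 57.1% of windows recurring and 930.1, 810.4 and 692 TPM.

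Ribosomal protein genes held more such sequence. Their median share of recurring windows was 43.7%, against 0% for detected genes. The 37 genes with at least 50% had a median of 21.9 TPM and the other 47 had 68.3 TPM, while Spearman's rho over the 84 genes, which share libraries and have families of processed copies, was -0.21. Rpl4 was the highest with 993, 917 and 765 TPM. Over all detected genes matched to a transcript, 172 had at least 50% recurring windows with a median of 13.5 TPM, against 23.9 TPM for 10464 others, and rho over all 10636 was -0.011. How the authors treated reads with several matches is not given in the sources used here, so the low class share of ribosomal proteins cannot be read as low expression, and the part of such reads in it was not tested.

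**Figure D4:**
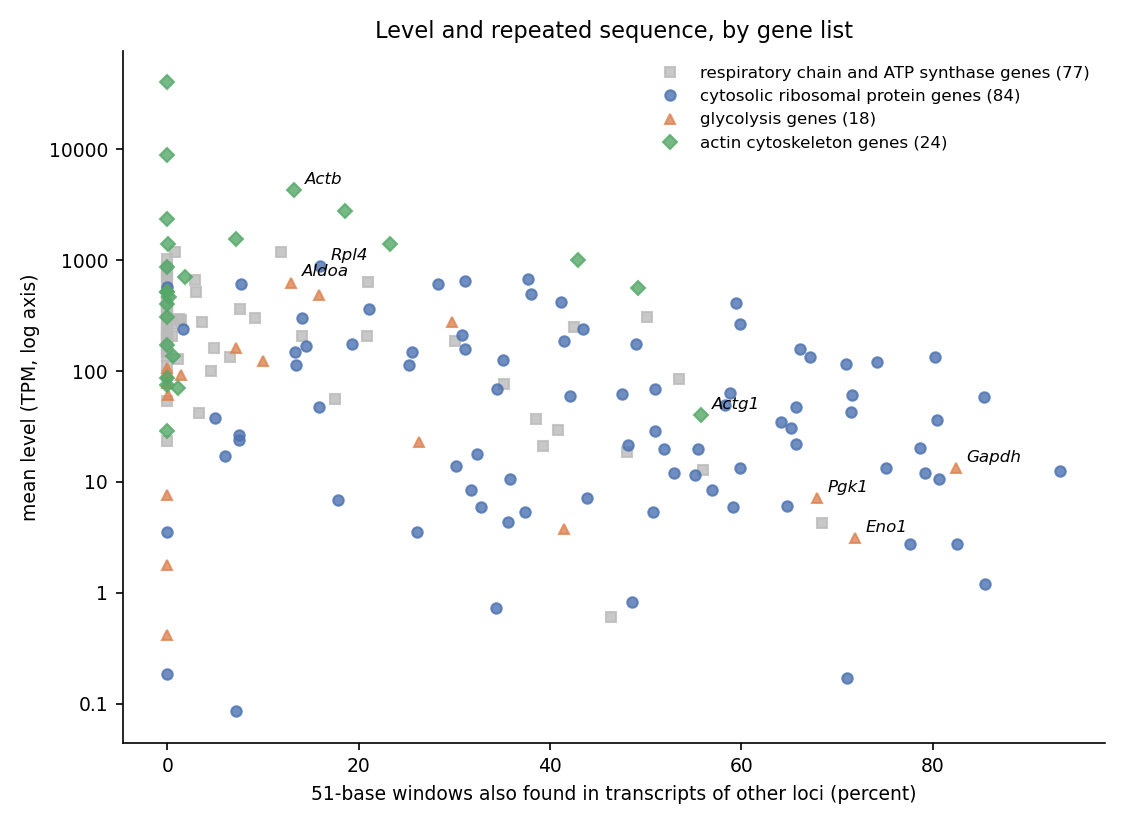
Mean TPM (log axis) against the percent of 51-base windows of a gene's transcript that also occur in transcripts of other loci, 1 point per gene of 4 lists. Gapdh, Pgk1 and Eno1 lie at the lower right, Aldoa and Actb at the upper left, and ribosomal protein genes spread over the whole width.

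Nearly all cell cycle genes were highest in healthy 2, and those of G2 and M phase were low. The 18 S phase genes were all detected, against 44.9% of all genes. Their median was 44.4 TPM, against 23.6 TPM for detected genes, with Pcna at 137, 140.1 and 128 TPM and Mcm6 at 112, 124 and 96.3 TPM. Of 18 G2 and M phase genes, 16 reached 1 TPM, against 44.9% of all genes. The list had a median of 3.16 TPM and a summed level of 32.3, 126 and 41.5 TPM. Top2a had 3.15, 11.7 and 4.12 TPM, Ccnb2 1.34, 15.9 and 3.67 TPM and Mki67 1.2, 4.39 and 1.96 TPM. Healthy 2 was highest for 18 of 18 G2 and M genes and 17 of 18 S phase genes, against 4590 of 15473 genes with a read. The G2 and M share was 0.00667% of TPM, and 0.00369% without healthy 2. Survival genes were led by Mcl1 with 663, 514 and 506 TPM and Bcl2 with 178, 171 and 186 TPM, and the apoptosis effector Bax had 268, 247 and 262 TPM. Pmaip1 (NOXA) passed 2-fold with 20.5, 6.06 and 5.6 TPM.

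Of the long noncoding RNA genes, Malat1 had 859.9, 697 and 1054 TPM and Gas5, a host gene of small nucleolar RNAs, had 193, 158 and 182 TPM. Xist, the RNA of the inactive X chromosome, had 5.14, 7.26 and 7.03 TPM, and the 4 Y-linked genes listed had 2 reads in all. The labels do not give the sex.

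Markers of other lymphocytes were mostly low, apart from part of the T cell list. Of the T cell genes, Cd3g had 3560.4, 3109 and 2901 TPM, while Cd3e and Cd3d had 16.2, 33.4 and 28.1 TPM and 48.2, 36.4 and 37.8 TPM, and Cd3g exceeded Cd3d by 78.7 ± 6.01. Cd4, Cd8a and Cd5 were at 2.65 TPM, 4.79 TPM and 0.299 TPM, and Themis had no read. The whole T cell list had 8 of 12 genes at 1 TPM, against 44.9% of all genes. These 8 had a median of 25.1 TPM, against 23.6 TPM over all detected genes, so not all members besides Cd3g were low. The summed level of the list was 3683, 3253 and 3043 TPM, nearly all of it Cd3g. ILC2 genes other than Gata3 were low, with Arg1 at 4.36, 7.91 and 10.9 TPM and Il1rl1 (ST2) at 0.0108 TPM. Of the ILC3 genes, only Kit reached 1 TPM, with 8.91, 2.17 and 5.25 TPM, and Il23r, Il22, Il17a, Il17f, Il1r1 and Ccr6 had no read. Of the 10 B cell genes, Cd79b had 11.3, 12.4 and 9.3 TPM, while Pax5 had no read.

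Myeloid genes separated healthy 1. Monocyte and neutrophil markers summed to 1015, 78.2 and 100.5 TPM, with 7 of 13 genes at 1 TPM in mean, against 44.9% of all genes. Their share was 0.0398% of TPM, and 0.00894% without healthy 1. Lyz2, the lysozyme of macrophages and monocytes, had 957, 72 and 70.3 TPM. The neutrophil genes S100a8 and S100a9 had 13.3, 1.68 and 15.1 TPM and 13.3, 0.501 and 8.84 TPM, and Ly6g had no read. Of 12 members with a read, 9 were highest in healthy 1. Kupffer cell and macrophage markers summed to 53.5, 33.2 and 34.2 TPM; Csf1r was highest in healthy 1 with 28.5, 3.87 and 2.92 TPM, but the Kupffer cell genes Clec4f at 0.298, 3.71 and 0.777 TPM and Timd4 at 0.0206, 0.965 and 0 TPM, and the complement genes C1qa at 1.32, 4.64 and 8.88 TPM and C1qb at 5, 7.81 and 8.91 TPM, were not. MHC class II genes followed healthy 1 in 9 of 10 members, with Cd74 at 164, 79.9 and 104 TPM. Of the 12 Kupffer cell and macrophage genes, 3 were highest in healthy 1.

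Liver tissue cells left little transcript. Hepatocyte markers summed to 3.29, 4.64 and 12.3 TPM over 12 genes, with albumin (Alb) at 0.544, 0.915 and 3.43 TPM. All 12 were highest in healthy 3, most of them on few reads, and their share fell from 0.000674% to 0.000397% of TPM without that library. Stellate cell markers summed to 0.952, 0.671 and 0.164 TPM, and Col1a1, Col3a1 and Des had no read. Of the endothelial list only Pecam1 reached 1 TPM, with 68.7, 60.1 and 50.8 TPM, while Kdr, Cdh5, Lyve1 and Clec4g had no read. Of the bile duct list only Epcam did, with 71.5, 62.2 and 53.3 TPM, while Krt19 and Cftr had no read. Pecam1 and Epcam were thus present without the defining genes of the tissue cells that also carry them. Haemoglobin differed most among these genes, with Hbb-bs at 37.5, 278 and 137 TPM and Hba-a2 at 16.4, 108 and 46.1 TPM. The share of the erythroid and platelet list was 0.021% of TPM, and 0.012% without healthy 2. Of the globin windows 65.7% and 86.7% recur at other loci, so reads among the globin copies are uncertain.

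Spread between the libraries was small for most genes. Of 8222 genes with a mean of at least 10 CPM, the median ratio of highest to lowest library was 1.16, 94.7% lay under 1.5, and 69 genes, or 0.839%, reached 2. Of these 69, 44 were highest in healthy 1, 10 in healthy 2 and 15 in healthy 3. Trove2, Cd74 and Cep162 lay just past 2-fold with ratios of 2.00, 2.03 and 2.03, and Emb, Lilr4b and Bcl9l lay just under it with 1.99, 1.98 and 1.98. Without healthy 1, 14 genes passed 2-fold between the remaining libraries, and 12 of them were among the 69. Without healthy 2 there were 54, and without healthy 3 there were 57. The biological coefficient of variation fitted by edgeR was 20.97% over 11572 genes, and 16.87% without healthy 1.

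The 12 largest ratios belonged to 9 genes known from myeloid cells, the HSP70 pair and a haemoglobin gene. Adgre4, an adhesion receptor of macrophages and monocytes, had 26.4, 3.64 and 0.772 CPM, a ratio of 34.2. Lyz2 followed with a ratio of 13.9, then Cybb, the NADPH oxidase subunit of phagocytes, with 54.6, 4.42 and 4.49 CPM. Spi1 (PU.1), the myeloid master factor, had 28.4, 2.79 and 2.46 CPM. Pld4, Chil3, Ccl6, Sirpa and Csf1r had ratios of 11.3, 11, 10.2, 9.99 and 9.98. In each of these 9, healthy 1 was the highest library. Hspa1b, Hspa1a and Hbb-bs had ratios of 9.26, 8.94 and 7.51, the last highest in healthy 2 and lowest in healthy 1.

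The steadiest genes at 10 CPM or more were Nsmaf, Rab2a, Gpr132, Msra and Atg4b, with ratios from 1.002 to 1.005. Nsmaf, an adaptor of the TNF receptor that controls sphingomyelinase, had 585, 586 and 586 CPM. Rab2a, a GTPase of transport between the endoplasmic reticulum and the Golgi, had 196, 196 and 195 CPM. For both genes the difference between the highest and the lowest library was smaller than the counting error of 1 library, taken as the square root of its reads. For most genes this was not so: between pairs of libraries, 66.8% to 72.8% of genes differed by more than the 95% range of counting error.

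**Figure D5:**
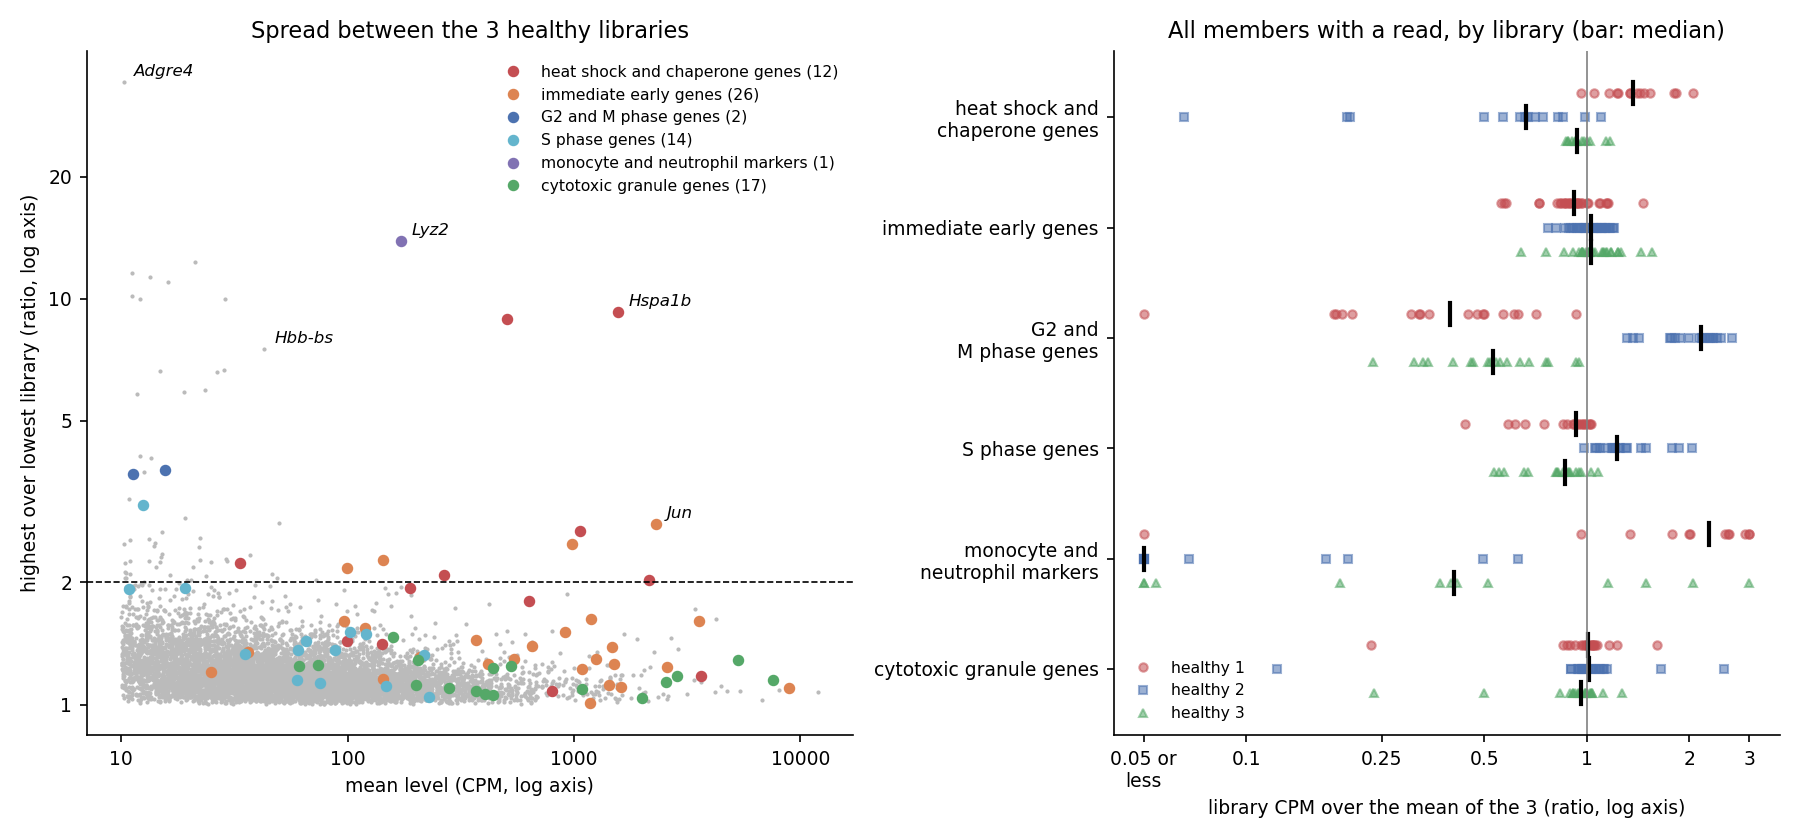
Left, the ratio of the highest to the lowest library against mean CPM (both log axes) for the 8222 genes at 10 CPM or more, with 6 lists coloured and the dashed line at 2. Right, each library's CPM over the mean of the 3 for every member with a read, with black bars at the medians: heat shock genes and monocyte markers are highest in healthy 1 and G2 and M phase genes in healthy 2, while granule genes centre on 1 in all libraries.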

How the data were processed

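The authors deposited 1 table of raw read counts per gene symbol for 6 libraries, with gene position and length in kilobases. Only its 3 healthy columns were used, and the authors' table of group comparisons was not used here. Per the submitters' processing notes, the tools included HTSeq 0.6.0, STAR 2.6.0, edgeR 3.28.1 and bcl2fastq 2.18.0.12, with builds mm10 and hg19. Neither their roles nor the treatment of reads with several matches is given in the sources used here. Positions are printed as deposited: 99.9% of 23349 shared symbols lie on the same chromosome in RefSeq GRCm38.p6, the mm10 assembly.

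From the counts, TPM was computed with the deposited lengths, and CPM with the TMM factors of edgeR 4.0.16 (1.00, 0.995 and 1.00) in R 4.3.3. Lengths that differ from the transcript expressed would shift TPM. The file length was within 5% of a GENCODE M21 transcript for 56.8% of matched genes. The biological coefficient of variation was fitted by edgeR with an intercept only, after filterByExpr at a minimum count of 10, and the step was tested on simulated data. Repeated sequence was measured as the share of 51-base windows of the transcript nearest in length that occur, on either strand, in transcripts of other loci, for 97.6% of symbols. Total counts of 48999439 to 51114701 per library set the counting error only, which most genes exceeded between libraries.

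With 1 group there is no test between groups, and no p-value is given. Genes were called 2-fold different on a ratio of highest to lowest CPM of 2 at a mean of at least 10 CPM. A total of 51 gene lists were used. Named genes were the 20 highest by TPM and 10 by CPM, the top members of each list, markers at or near 0, the largest and smallest ratios, genes around 1 TPM and the 6 markers, with further members of short lists. The members and lists were chosen with earlier results of these data known. The housekeeping genes and the promoters were chosen after values were seen. Alternatives were other size factors, thresholds, scales and leaving out each library. Listed symbols without a match in the table, such as Pvrig and Zfp683, were not analysed here. Levels of a few list members are not reported here.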

Additional observations from a re-analysis of the deposited data

How the results depend on the processing

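The number of genes detected in every library was 10351 at 1 CPM, and 10825 genes reached 1 TPM in the mean of the libraries. The number at 1 TPM in every library ranged from 10461 to 10469 with 1 library left out. The share of the 100 highest genes fell from 36.2% to 22.9% without length scaling, and ranged from 35.8% to 36.6% with 1 library left out. As percent of counts, the shares were 2.45% for granule genes, 1.05% for chemokines, 3.49% for actin genes, 2.67% for class I genes and 0.439% for ribosomal protein genes. These scale changes were larger than the spread between libraries, and follow from the length division itself. The biological coefficient of variation was 29.8% with no filter and ranged from 16.9% to 22.5% with 1 library left out. The number of 2-fold genes was 755 at a mean of 1 CPM and 25 at a ratio of 3, and ranged from 14 to 57 with 1 library left out, the lowest without healthy 1. Total counts and RLE size factors gave 70 and 69. Leaving out 1 library moved 4 class shares by over 1.5 times: monocyte and neutrophil markers from 0.0398% to 0.00894% without healthy 1, G2 and M phase genes from 0.00667% to 0.00369% and erythroid and platelet markers from 0.021% to 0.012% without healthy 2, and hepatocyte markers from 0.000674% to 0.000397% without healthy 3. No paired analysis was possible because only 1 group was used and no result came from a test. In healthy 3, the library with the fewest reads, 0 reads allow a level of up to 0.0612 CPM, which is 3 counts.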

Other observations

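Clustered histone genes, whose main transcripts end without a poly(A) tail, were read at low levels in these poly(A)-primed libraries. Of 64 such genes, 33 reached 1 TPM, against 44.9% of all genes, and the summed level was 374, 686 and 673 TPM. Hist1h1c, a linker histone gene, had 122, 214 and 185 TPM, Hist1h1e had 46.7, 96.1 and 109 TPM and Hist1h4d had 38.6, 43.7 and 57 TPM. Healthy 1 was the lowest library for 51 of the 60 members with a read, against 5643 of 15473 genes, while healthy 2 was the highest for 31 and healthy 3 for 25. Of the 18 S phase genes, 17 were highest in healthy 2 and 13 were lowest in healthy 3, where the histone genes were high. Among members at 10 CPM or more, 3 of 4 passed 2-fold, against 0.839% of all genes. Their median share of windows that recur at other loci was 45.4%, so levels of single copies are uncertain.

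Mitochondrial ribosomal protein genes differed from the cytosolic ones in repeated sequence, with a median of 0% of windows recurring at other loci against 43.7%. The 77 genes held 0.536 ± 0.0124% of TPM with a median of 57.6 TPM, against 36.8 TPM for the 84 cytosolic genes. Mrpl52 had 225, 212 and 217 TPM and Mrps26 had 215, 199 and 197 TPM, while Rps14 had 697, 659 and 662 TPM. Translation factors had a median of 159 TPM, with Eif5a, an elongation factor, at 933, 852 and 792 TPM.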
